A study of Mus musculus with 24 samples.

Results

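Baf180 KD myoblasts grown with added zinc were compared with scr control myoblasts grown with the same zinc, in 4 of the 24 RNA-seq libraries of the study. The comparison used the 2 Baf180 KD Zn and the 2 scr Zn libraries. The same contrast without added metal, from 2 Baf180 KD NT and 2 scr NT libraries that the zinc comparison does not share, was set beside it, and the genes of interest were stress genes that changed in 1 of the 2 contrasts and not in the other. The stress genes were the 427 genes of 16 lists (metal handling, oxidative, proteotoxic, genotoxic, inflammatory and hypoxic stress, and cell death) that the count table holds. All libraries came from C2C12 cells, a mouse myoblast line, although the sample labels call the tissue primary myoblasts. The cells carried a lentiviral short hairpin RNA (shRNA) against Baf180 or a scrambled shRNA (scr) and were kept under puromycin as stable populations. The sources used here do not state whether the replicates of a line came from separate transductions, so each line may be 1 selected population. The study describes the 2 replicates of a group as independent, and nothing used here says how far apart they were handled, so p-values measure the spread between these cultures. Zn libraries came from cells given 50 µM ZnSO4 for 48 h, and NT libraries from cells with no added metal. The treatment tag of the labels goes against the titles (it reads Cu for all 4 Baf180 KD libraries used here and None for the 4 scr libraries), so groups were taken from the titles.

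Baf180, the product of the Pbrm1 gene, is a subunit of PBAF, one of the forms of the SWI/SNF complex, which uses ATP to move nucleosomes. Zinc entering a cell is bound by metallothioneins and moved across membranes by transporters of the SLC30 family (out of the cytosol) and the SLC39 family (into it). The transcription factor MTF1 senses free zinc and activates the metallothionein genes and Slc30a1 through short DNA elements called metal response elements, and other stresses are answered by factors of their own, such as NRF2 for oxidants, HSF1 for misfolded protein, ATF4 for the integrated stress response and p53 for DNA damage.

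The sequences behind the knockdown and the zinc response are printed here because the first set defines the knockdown and the second lies before the metallothionein genes and 2 zinc exporters whose values are compared here. The study used 2 shRNAs against Baf180, and the sources used here do not state which of them was sequenced. Their target sequences, matched to Pbrm1 transcripts of GENCODE M21 (GRCm38), were:
Baf180 shRNA1: tgtgaagttggtcctagttta
Baf180 shRNA2: gtgcaatatccagactattat
The target of shRNA1 lies at chr14:31119323-31119343 on the plus strand, in the 3′ UTR of 4 of 17 annotated Pbrm1 transcripts. The target of shRNA2 is coding sequence in 13 of the 17 transcripts and crosses an exon junction, with 3 bases at chr14:31036057-31036059 and 18 bases at chr14:31038933-31038950. The next 4 windows are the 250 bases before the RefSeq start of the metallothionein genes Mt1 and Mt2 and of the zinc exporters Slc30a1 and Slc30a4 (RefSeq, GRCm38.p6), on the strand of the gene. Capitals mark each match to the metal response element core, searched as TGCACNC or TGCGCNC on both strands.
Mt1: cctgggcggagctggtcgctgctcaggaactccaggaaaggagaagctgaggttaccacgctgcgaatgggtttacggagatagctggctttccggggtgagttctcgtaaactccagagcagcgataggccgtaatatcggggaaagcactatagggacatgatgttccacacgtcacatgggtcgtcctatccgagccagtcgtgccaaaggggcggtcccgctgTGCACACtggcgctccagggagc
Mt2: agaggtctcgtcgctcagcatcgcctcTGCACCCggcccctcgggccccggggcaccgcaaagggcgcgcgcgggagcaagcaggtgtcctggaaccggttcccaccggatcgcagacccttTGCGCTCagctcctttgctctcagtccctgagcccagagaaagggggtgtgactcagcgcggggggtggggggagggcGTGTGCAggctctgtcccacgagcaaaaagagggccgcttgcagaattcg
Slc30a1: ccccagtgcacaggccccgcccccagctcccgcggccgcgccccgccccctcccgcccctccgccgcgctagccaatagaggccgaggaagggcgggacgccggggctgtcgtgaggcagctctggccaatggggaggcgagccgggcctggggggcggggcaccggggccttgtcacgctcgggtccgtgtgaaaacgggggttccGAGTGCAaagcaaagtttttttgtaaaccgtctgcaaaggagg
Slc30a4: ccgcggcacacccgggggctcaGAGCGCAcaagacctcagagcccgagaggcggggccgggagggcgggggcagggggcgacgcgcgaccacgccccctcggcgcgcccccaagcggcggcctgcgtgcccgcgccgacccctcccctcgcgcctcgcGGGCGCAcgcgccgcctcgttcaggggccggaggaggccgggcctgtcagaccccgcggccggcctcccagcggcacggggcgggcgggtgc
The windows lie at chr8:94178839-94179088 (Mt1, plus strand), chr8:94172368-94172617 (Mt2, plus strand), chr1:191906531-191906780 (Slc30a1, plus strand) and chr2:122702664-122702913 (Slc30a4, minus strand). They held 1 match for Mt1, 3 for Mt2, 1 for Slc30a1 and 2 for Slc30a4. Of 32851 promoter windows of this length, 21.4% held at least 1 match, 5.17% at least 2 and 1.26% at least 3. GENCODE also lists transcripts that start downstream of the RefSeq start. They start 122 and 152 bases downstream for Mt1, 46 and 242 for Mt2, 475 for Slc30a1 and 24 for Slc30a4. Sequence just before those starts lies outside the windows, so the match counts do not cover it and are not counts per gene.

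The 8 libraries held between 13979295 and 75179394 counts assigned to genes, with the scr Zn replicate 2 library the deepest and the Baf180 KD Zn replicate 1 library the shallowest. The libraries differed in how counts depended on the GC content of genes. Across protein-coding genes the log2 fold change rose with GC content with zinc (Spearman 0.43 over 12279 genes) and fell with it NT (Spearman -0.29 over 12197 genes), and the difference of the 2 contrasts followed GC content most closely (Spearman 0.67 over 12440 genes). These are descriptions across genes, which are not independent replicates. Genes linked to ribosomal RNA took 4.62% and 1.63% of counts in the scr NT libraries and at most 0.787% in the other 6. Each difference was therefore also computed after a correction of every library for GC content and transcript length, which brought the 3 correlations to -0.02, -0.04 and 0.00137. A GC trend of the cells and one of library preparation cannot be told apart here.

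Pbrm1 (chr14:31019138-31121592, plus strand) was lower in the Baf180 KD libraries in both contrasts. In CPM, counts scaled to a common library total, it stood at 50.7 and 62.9 CPM in Baf180 KD Zn, 227 and 236 in scr Zn, 65.8 and 75.7 in Baf180 KD NT and 140.2 and 97.8 in scr NT. With zinc its log2 fold change was -2.03 (SE 0.10, adjusted p = 1.2e-06), and NT it was -0.76 (SE 0.16, adjusted p = 0.0027). The 4 KD libraries lay below the 4 scr libraries, and the scr Zn libraries were the highest of all. The difference of the 2 fold changes, -1.28, was -0.40 after the correction (adjusted p = 0.039), where the contrasts stood at -1.65 with zinc and -1.26 NT. Of the other PBAF subunits, Phf10, the PHD-finger subunit, was lower in both contrasts with log2 fold changes of -0.78 and -0.48. Arid2, the ARID and zinc-finger subunit of PBAF, had a log2 fold change of -0.02 with zinc (adjusted p = 0.76) and was higher NT at 0.52 (adjusted p = 0.0022). Brd7, the bromodomain subunit, was lower with zinc at -0.28 (adjusted p = 0.0077) and had -0.19 NT (adjusted p = 0.17). After the correction the NT value of Arid2 was 0.20 (adjusted p = 0.046), and Brd7 was called NT as well, at -0.23 (adjusted p = 0.039). Adjusted p-values are from edgeR's quasi-likelihood test with the Benjamini-Hochberg adjustment over all genes tested, and a gene was called at an adjusted p under 0.05.

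Of the 427 stress genes, 35 had too few counts to be tested with zinc. Of the 392 tested, 258 were called (65.8%), 134 higher and 124 lower in Baf180 KD. Of all genes tested with zinc 49.9% were called (7547 of 15136, 3771 higher and 3776 lower). Stress genes were also more abundant, with a median of 52.7 CPM over the Zn libraries against 21.3 CPM for all genes tested. The part of abundance in the share called was not tested. NT, 226 of 389 stress genes were called (58.1%), 101 higher and 125 lower, beside 41% of all genes (6087 of 14851). Higher genes made up 52.9% of the NT calls and 41.4% after the GC and length correction, so the balance of directions depended on that correction. The median log2 fold change of the stress genes was 0.04 with zinc and -0.05 NT, and the medians of all genes tested were -0.00440 and 0.03.

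**Figure D1:**
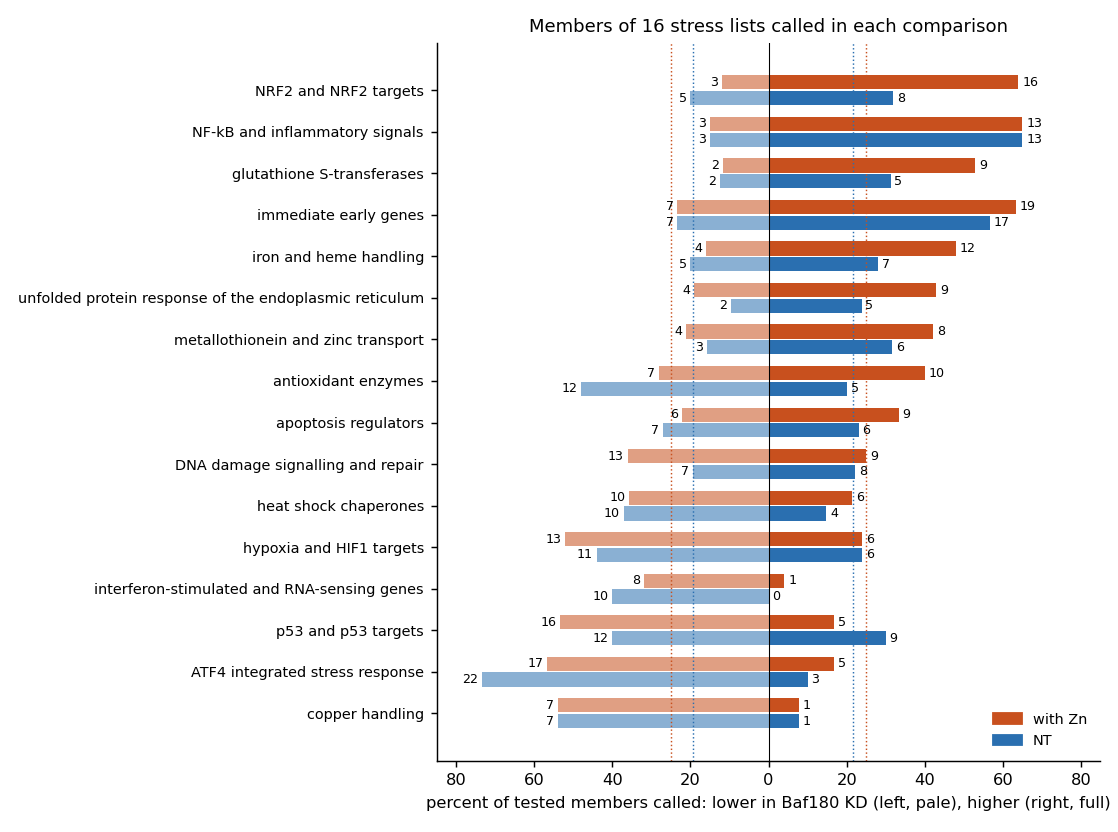
Share of the tested members of each of 16 stress lists called lower (left, pale bars) or higher (right, full bars) in Baf180 KD than in scr, in percent, with Zn (orange) and NT (blue). Numbers at the bars are genes called, dotted lines mark the share of all genes called in that direction (24.9% each way with Zn, 21.7% higher and 19.3% lower NT), and the NRF2 list has 16 genes higher with Zn against 8 NT. After the GC and length correction, which the bars do not include, these NRF2 counts were 13 and 9.

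The lists changed in different directions. Among 25 NRF2 targets, 16 were higher and 3 lower with zinc, beside 24.9% of all genes higher and 24.9% lower, and NT 8 were higher and 5 lower. Glutathione S-transferases showed 9 higher and 2 lower of 17 with zinc. Immediate early genes (19 higher and 7 lower of 30) and NF-kB and inflammatory genes (13 higher and 3 lower of 20) were mostly higher with zinc, and NT the counts were 17 and 7, and 13 and 3. The ATF4 list was mostly lower, with 17 lower and 5 higher of 30 with zinc and 22 lower and 3 higher NT. More members were called lower than higher with zinc also among p53 targets (16 lower and 5 higher of 30), hypoxia genes (13 and 6 of 25) and copper handling genes (7 and 1 of 13). Of 25 interferon-stimulated genes 8 were lower and 1 higher with zinc, and the other 16 were not called. DNA repair genes (13 lower and 9 higher of 36), heat shock chaperones (10 and 6 of 28), antioxidant enzymes (7 and 10 of 25), apoptosis regulators (6 and 9 of 27), the unfolded protein response of the endoplasmic reticulum (4 and 9 of 21), iron and heme genes (4 and 12 of 25) and zinc genes (4 and 8 of 19) changed in both directions. After the GC and length correction, 3 copper genes were lower and 1 higher with zinc, and the corrected counts were 15 lower and 7 higher for p53 targets, 12 lower and 4 higher for hypoxia genes, 13 higher and 6 lower for NRF2 targets, 18 lower and 7 higher for DNA repair, 22 lower and 2 higher for the ATF4 list, 8 lower and 8 higher for antioxidant enzymes and 6 lower and 6 higher for apoptosis regulators, beside 22.1% of all genes higher and 27.8% lower with zinc (18.1% and 25.5% NT). Corrected, glutathione S-transferases had 7 higher and 2 lower with zinc, immediate early genes 18 and 7, and NF-kB genes 13 and 4. In the same order, the unfolded protein response had 10 and 5, iron and heme genes 10 and 4, and zinc genes 6 and 4. Heat shock chaperones had 4 and 10, and interferon-stimulated genes 1 and 9. NT the corrected counts were 9 and 7 for NRF2 targets, 3 and 22 for the ATF4 list and 1 and 7 for copper genes. The lists were not tested as sets, and their members overlap in part.

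Metallothioneins were higher in Baf180 KD in both contrasts, and the fold difference was smaller with zinc. Mt1 (chr8:94179082-94180327) and Mt2 (chr8:94172664-94173568) encode the zinc-binding metallothioneins 1 and 2 and lie next to each other on chromosome 8. Mt1 stood at 721 and 505 CPM in Baf180 KD Zn, 319 and 294 in scr Zn, 282 and 218 in Baf180 KD NT and 54.2 and 63.8 in scr NT. Both KD libraries lay above both scr libraries in each treatment, and the scr NT libraries were the lowest of the 8. The log2 fold change of Mt1 was 0.98 (SE 0.13, adjusted p = 4.2e-04) with zinc and 2.07 (SE 0.14, adjusted p = 4.4e-07) NT, and the difference was -1.08 (SE 0.22, adjusted p = 0.0057). Mt2 measured 374 and 307 CPM in Baf180 KD Zn, 202 and 197 in scr Zn, 110.1 and 96.3 in Baf180 KD NT and 17.8 and 20.3 in scr NT. Its log2 fold change was 0.76 (SE 0.084, adjusted p = 1.3e-04) with zinc, 2.42 (SE 0.12, adjusted p = 6.6e-08) NT, and -1.66 (SE 0.15, adjusted p = 0.001) for the difference. After the GC and length correction the differences were -1.50 for Mt1 and -2.32 for Mt2, farther from 0 than before. The levels and the fold changes of each contrast given here are those before the correction. Mean Mt1 in the Zn libraries was 2.45 times the NT mean in the KD line and 5.2 times in scr, and the corresponding Mt2 ratios were 3.3 and 10.5. On the linear scale the order turned: the KD mean exceeded the scr mean by 307 CPM of Mt1 with zinc and by 191 CPM NT, and by 141 and 84.1 CPM of Mt2. The fold difference and the CPM difference therefore ranked the treatments in opposite order.

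**Figure D2:**
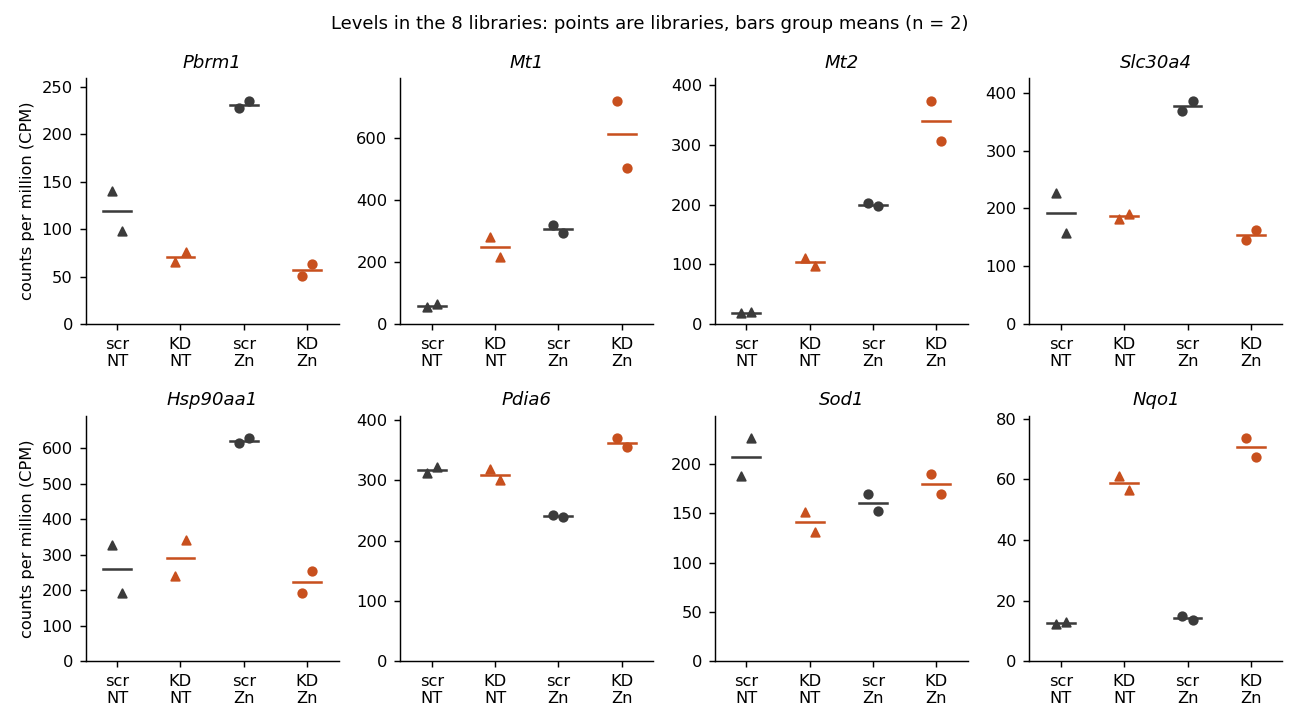
Levels of 8 genes in CPM (linear axes from 0) in the 2 libraries of each group (points) with the group mean (bar), scr in black and Baf180 KD in orange. Mt1 and Mt2 rise from scr NT to Baf180 KD Zn, whereas for Pbrm1, Slc30a4 and Hsp90aa1 the 2 scr Zn libraries stand above the other 6 and Nqo1 separates the 2 lines in both treatments.

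Zinc transporters changed in both directions. Slc30a1, the plasma membrane zinc exporter, stood at 35.9 and 31 CPM in Baf180 KD Zn, 30.6 and 28 in scr Zn, 16.6 and 15.9 in Baf180 KD NT and 10.6 and 11.1 in scr NT. Levels were higher in the Zn than in the NT libraries of both lines, and KD lay above scr in each treatment, with zinc by a narrow margin. Its log2 fold change was 0.18 (SE 0.092, adjusted p = 0.14) with zinc and 0.57 (SE 0.15, adjusted p = 0.0098) NT, and the difference of the 2 missed the threshold at -0.39 (SE 0.15, adjusted p = 0.075). Slc30a4, an exporter of intracellular vesicles (chr2:122681233-122702663, minus strand), was called with zinc and not NT. It measured 145 and 163 CPM in Baf180 KD Zn, 369 and 386 in scr Zn, 182 and 189.8 in Baf180 KD NT and 226 and 157 in scr NT. The 2 scr Zn libraries stood apart above all others, and the log2 fold change was -1.30 (SE 0.077, adjusted p = 3.5e-06) with zinc and -0.05 (SE 0.15, adjusted p = 0.8) NT. The difference, -1.25 (SE 0.20, adjusted p = 0.0025), was -0.39 after the correction (adjusted p = 0.033), where Slc30a4 was lower in both contrasts. Slc39a7, which releases zinc from the endoplasmic reticulum, was chosen after its values were seen and changed in opposite directions. It stood at 32.9 and 36.2 CPM in Baf180 KD Zn, 24.5 and 22.9 in scr Zn, 27.7 and 27.8 in Baf180 KD NT and 41 and 47.8 in scr NT. Its log2 fold change was 0.54 with zinc and -0.69 NT, with a difference of 1.22 (SE 0.15, adjusted p = 0.0018). After the correction the zinc value was 0.21 (adjusted p = 0.072) and the difference 0.83. Slc39a14, an importer of zinc and iron, was higher in both, at 0.91 and 0.62. Slc39a10, another importer, was at 17.5 and 14.3 CPM in Baf180 KD Zn and 19.1 and 19 CPM in scr Zn and passed in neither contrast (adjusted p = 0.059 and 0.59). Mtf1 itself, the zinc sensor, had log2 fold changes of -0.07 and -0.25 and was called in neither (adjusted p = 0.53 and 0.089).

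Of the 388 stress genes tested in both contrasts and for the difference, 85 were called with zinc and not NT (54 higher, 31 lower), 54 NT and not with zinc (14 higher, 40 lower), 171 in both and 78 in neither. Over all 14578 genes so tested these shares were 23.2%, 13.7%, 27.4% and 35.6%, so the share of stress genes changing with zinc only (21.9%) or NT only (13.9%) was near that of genes at large. A call in 1 contrast alone does not show a difference, so the difference was tested: 46 of the 85 and 29 of the 54 passed (11.3% and 8.2% of all genes fell in these classes and passed). In all, 142 of 395 stress genes passed the test of the difference, 88 with a higher value with zinc and 54 with a lower one, beside 29.4% of all genes (4577 of 15552). After the correction 76 stress genes and 2122 genes in all (13.6%) passed; 62 stress genes were then called with zinc only, 18 of them passing, and 55 NT only, 25 of them passing, beside 18.8% and 11.8% of all genes in these classes and 4.65% and 4.47% in them and passing. Positive differences made up 46.4% of all calls before the correction and 56.8% after it. The differences of 51 stress genes passed before and after the correction with the same sign, which 8.88% of all genes did. Of these 51, 11 had been called with zinc only, 10 NT only and 30 in both, 15 of the 30 in opposite directions. Leaving out each of the 8 libraries in turn, 34 of the 51 passed the uncorrected test in every fit: 8 with zinc only, 6 NT only and 20 called in both. Of all genes 6.46% (942 of 14578) passed in that way. With both demands in the same fit, correction included, between 12 (without scr Zn replicate 2) and 66 stress genes passed.

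**Figure D3:**
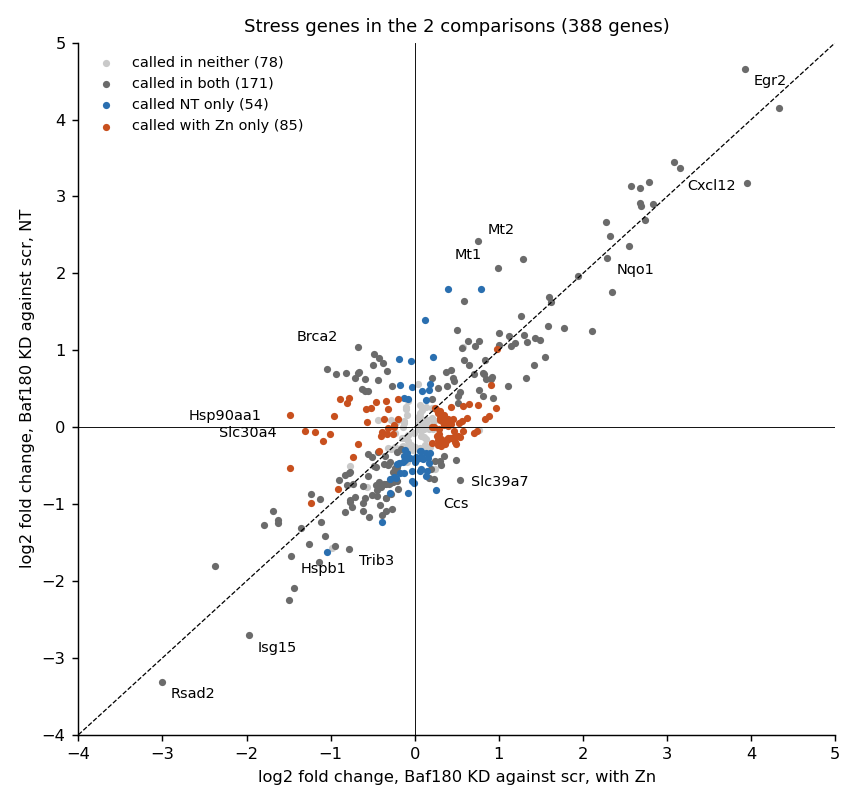
Log2 fold change of 388 stress genes in Baf180 KD against scr with Zn (horizontal) and NT (vertical), each point a gene coloured by the contrasts in which it was called, with the dashed line where both values are equal. The 85 genes called with Zn only and the 54 called NT only lie mostly within 1 log2 unit of 0, and Mt1 and Mt2 lie above the line.

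Of the 8 genes among the 34 that were called with zinc only, 4 were lower and 4 higher in Baf180 KD. Hyou1 and Rad50 fell outside the rule for named genes and were chosen after their values were seen. Hsp90aa1 (chr12:110690605-110702728, minus strand) encodes the inducible cytosolic HSP90 chaperone. It stood at 193 and 255 CPM in Baf180 KD Zn, 616 and 629 in scr Zn, 240.5 and 343 in Baf180 KD NT and 327 and 193 in scr NT. The 2 scr Zn libraries were the highest of the 8, and the other 6 spanned 193 to 343 CPM. The log2 fold change was -1.48 (SE 0.12, adjusted p = 2.2e-05) with zinc, 0.16 (SE 0.22, adjusted p = 0.59) NT and -1.65 (SE 0.33, adjusted p = 0.0053) for the difference, and the corrected difference was -1.25. Eif2ak2, the RNA-activated kinase PKR that phosphorylates eIF2α, measured 21.4 and 25.9 CPM in Baf180 KD Zn, 40.2 and 41.1 in scr Zn, 30.9 and 30.4 in Baf180 KD NT and 27.2 and 19.8 in scr NT. Its fold change was -0.78 (SE 0.10, adjusted p = 3.3e-04) with zinc and 0.38 (SE 0.15, adjusted p = 0.067) NT on the log2 scale, and KD lay below scr in the first and above it in the second, without overlap. Rad50, a subunit of the MRN complex that senses DNA double-strand breaks, was lower with zinc at -0.46 (50.3 and 54.4 against 69.7 and 73.8 CPM) and had 0.33 NT. Pdia6, a protein disulfide isomerase of the endoplasmic reticulum, was higher with zinc. It stood at 369 and 354 CPM in Baf180 KD Zn, 243 and 239 in scr Zn, 318 and 301 in Baf180 KD NT and 311 and 322 in scr NT. Here the 2 scr Zn libraries were the lowest of the 8, and the log2 fold change was 0.57 (SE 0.056, adjusted p = 6.5e-05) with zinc and -0.05 (SE 0.10, adjusted p = 0.74) NT. Hyou1, a chaperone of the same compartment, showed 0.34 and -0.19, and its zinc value no longer passed after the correction (0.12, adjusted p = 0.089). Pgd, an NADPH-producing enzyme of the pentose phosphate pathway, was at 266 and 227 CPM in Baf180 KD Zn and 179 and 163 CPM in scr Zn, with log2 fold changes of 0.51 with zinc and -0.11 NT. Parp1, which adds poly-ADP-ribose at DNA breaks, had 0.38 and -0.17. Slc30a4, described above, was the other gene of this kind.

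The 6 genes among the 34 that were called NT only were lower in Baf180 KD. Sod1, the copper- and zinc-containing superoxide dismutase, stood at 189.9 and 169 CPM in Baf180 KD Zn, 169 and 153 in scr Zn, 152 and 131 in Baf180 KD NT and 188 and 226 in scr NT. NT the scr libraries lay above the KD libraries, and with zinc the groups overlapped at 169 CPM. The log2 fold change was 0.14 (SE 0.074, adjusted p = 0.14) with zinc and -0.57 (SE 0.12, adjusted p = 0.003) NT, with a difference of 0.71 (SE 0.15, adjusted p = 0.0071). Ccs, the chaperone that loads copper into Sod1, measured 19.8 and 16.1 CPM in Baf180 KD Zn, 15.6 and 14.3 in scr Zn, 13 and 15.3 in Baf180 KD NT and 22.3 and 27.1 in scr NT. Its fold change was -0.82 (SE 0.16, adjusted p = 0.0017) NT and 0.25 (SE 0.12, adjusted p = 0.11) with zinc on the log2 scale. Taldo1, a transaldolase of the pentose phosphate pathway, had -0.86 NT and -0.08 with zinc, but was lower in both contrasts after the correction. Phgdh, which starts serine synthesis, showed -0.64 NT and 0.13 with zinc, and it too was lower in both after the correction (-0.18 with zinc). Mthfd2, a mitochondrial folate enzyme of the ATF4 program, stood at 188 and 167 CPM in Baf180 KD Zn, 175 and 162 in scr Zn, 152 and 141 in Baf180 KD NT and 208 and 223 in scr NT. The 2 scr NT libraries were the highest, and its log2 fold change was -0.57 NT and 0.06 with zinc. Dnajb11, a co-chaperone of the endoplasmic reticulum, had -0.40 NT and 0.16 with zinc. The chaperones Hspa5 (BiP, -0.45 NT and -0.15 with zinc) and Hspa9 (mortalin, -0.59 and -0.18) and the copper-trafficking gene Commd1 (-0.70 and -0.04) passed before and after the correction, but not in every fit that left out a library.

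Of the 34 genes, 14 were called in both contrasts in opposite directions, and all but Atr and Brca2 were chosen after their values were seen. Of these, 8 were lower with zinc and higher NT, among them the DNA damage kinases Atm and Atr. Atr stood at 24.3 and 32.9 CPM in Baf180 KD Zn, 47 and 54.1 in scr Zn, 31.4 and 39.5 in Baf180 KD NT and 25.2 and 18.3 in scr NT. With zinc both scr libraries lay above both KD libraries, NT the order was the reverse, and the log2 fold changes were -0.82 and 0.71. After the correction these values were -0.36 with zinc and 0.13 NT (adjusted p = 0.37). The difference went from -1.54 to -0.50. Brca2, which acts in homologous recombination, measured 22.1 and 30.2 CPM in Baf180 KD Zn, 39.9 and 43.6 in scr Zn, 26.9 and 39.6 in Baf180 KD NT and 19.2 and 13.1 in scr NT. Its fold changes were -0.67 with zinc and 1.05 NT on the log2 scale, with a difference of -1.73 (SE 0.31, adjusted p = 0.0035) that was -0.85 after the correction. The pattern was the same for Atm (-0.50 and 0.81), Nbn of the MRN complex (-0.55 and 0.47), Xrcc4 of end joining (-0.49 and 0.95), the p53-induced ribonucleotide reductase Rrm2b (-0.94 and 0.69), the co-chaperone Dnajb4 (-0.62 and 0.50) and the histone demethylase Kdm3a (-0.27 and 0.53). In the reverse pattern, higher with zinc and lower NT, were Slc39a7, the pro-apoptotic Bad (0.49 and -0.42), the HSP90 co-chaperone Fkbp4 (0.23 and -0.67), Pck2, a mitochondrial gluconeogenic enzyme (0.19 and -0.54), the peroxiredoxin Prdx5 (0.17 and -0.66) and the autophagy receptor Sqstm1 (0.35 and -0.37). After the correction only Bad, Brca2 and Kdm3a of the 14 passed in both contrasts. The other 11 passed in 1 of them, while their difference still passed. The corrected zinc values of Fkbp4 (-0.079) and Prdx5 (-0.12) lay below 0, so these genes were no longer opposite. It was the difference, and not both calls, that held without each library: 13 of the 14 lost 1 of the 2 calls in at least 1 fit, and Slc39a7 kept both. The NT calls of Bad, Dnajb4 and Nbn were lost without either Baf180 KD NT library or without scr NT replicate 2, and the Zn calls of Fkbp4, Prdx5 and Xrcc4 without either scr Zn library or without Baf180 KD Zn replicate 1. Over these fits the NT value ran from 0.24 to 0.70 for Nbn, from 0.68 (without Baf180 KD NT replicate 2) to 1.33 for Brca2, from 0.53 to 1.11 for Atm and from -0.62 to -0.21 for Bad, and the zinc value from -0.79 to -0.27 for Xrcc4 and from 0.14 to 0.33 for Fkbp4. The remaining 6 of the 20, of which all but Mt1 and Mt2 were chosen after their values were seen, changed the same way in both contrasts by unequal amounts. Mt1, Mt2, the nuclear receptor Nr4a2 (0.59 with zinc, 1.65 NT) and the mRNA-decay factor Zfp36l1 (0.51 and 1.26) were higher, and the matricellular gene Ccn2 (-1.79 and -1.27) and the glycolytic enzyme Pgk1 (-0.27 and -1.06) were lower.

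**Figure D4:**
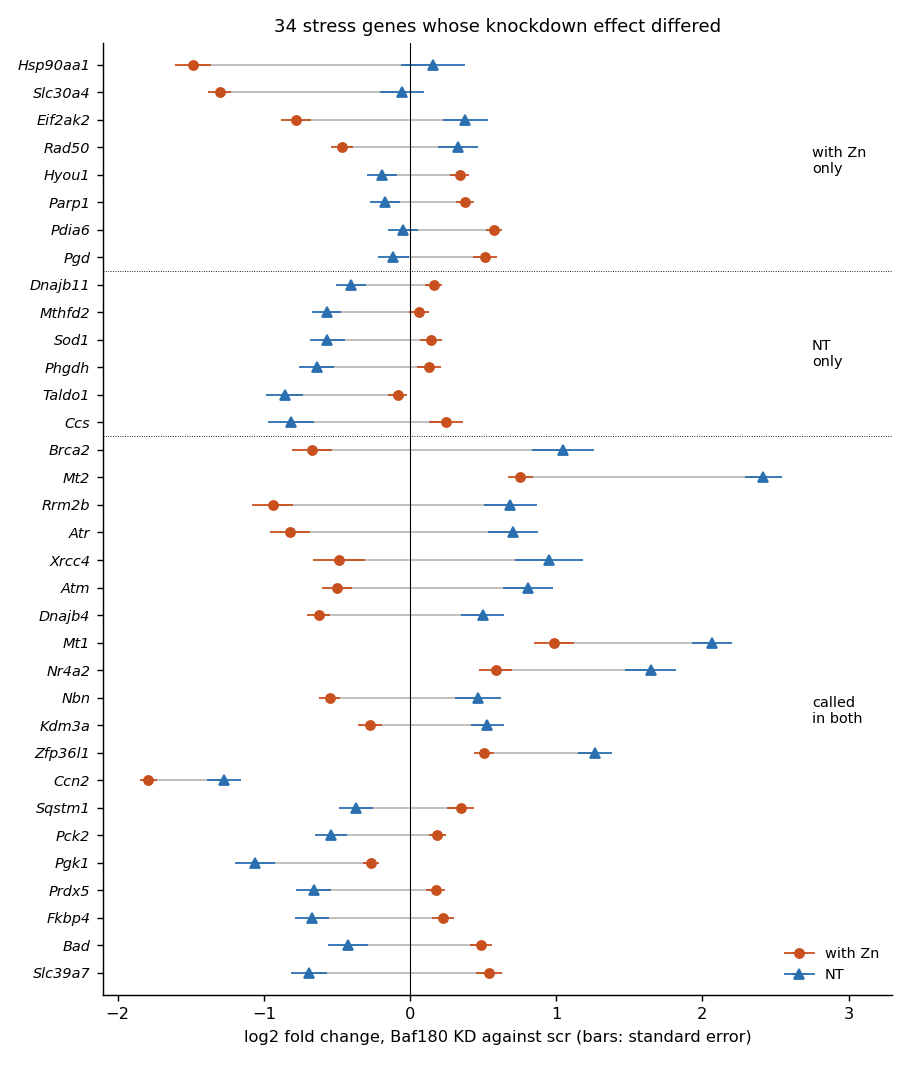
Log2 fold change in Baf180 KD against scr with Zn (orange circles) and NT (blue triangles), with standard errors, for the 34 stress genes whose difference passed before and after the correction and without each library, grouped by the contrasts in which they were called. The fits without a library were uncorrected. Mt1 and Mt2 are higher in Baf180 KD in both contrasts, and 14 genes called in both have their 2 values, before the correction, on opposite sides of 0.

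The line in which the level differed more between Zn and NT was usually scr. In 28 of the 34 genes (82.4%) the scr mean differed more between treatments, as a ratio, than the KD mean did, and the 2 lines moved in opposite directions in 32 of the 34. Over all 14578 genes the scr mean differed more in 10611 (72.8%) and the lines moved in opposite directions in 10531. The 34 were picked by the test of the difference on the same libraries, which favours lines that move apart. In all, 1294 genes passed that test before and after the correction with the same sign. Of these the scr mean differed more in 1170 (90.4%) and the lines moved in opposite directions in 1276. The counts of the 34 are therefore not particular to the stress genes. The Zn mean of Hsp90aa1 was 2.39 times the NT mean in scr and 0.766 times in the KD line. For Atr these ratios were 2.33 and 0.807, and for Ccs they were 0.605 and 1.27. The scr NT libraries are those with the highest ribosomal RNA share, and the part of that share in these ratios was not tested. The ratios are of means not corrected for GC content and length. On a common scale, the slope of level on GC content was 0.09 and 0.32 in scr NT and -0.27 and -0.32 in scr Zn. In Baf180 KD it was -0.01 and -0.10 NT and 0.22 and 0.06 with zinc. The part of these slopes in the ratios and in the counts above was not tested either.

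Several differences that passed at first were lost, or turned, with the GC and length correction. Hsf2, a heat shock transcription factor, stood at 23.5 and 28.2 CPM in Baf180 KD Zn, 57.4 and 60.8 in scr Zn, 31.1 and 33.6 in Baf180 KD NT and 35.5 and 31.4 in scr NT. Its difference of -1.14 (SE 0.16, adjusted p = 0.0022) became 0.45 (adjusted p = 0.056), with the gene lower in both contrasts after the correction. Ireb2, the iron regulatory protein 2, went from -1.13 to 0.10, Tfrc, the transferrin receptor, from -0.83 to 0.24, Slc7a11, the cystine importer of the NRF2 program, from -0.93 to 0.15 and Eda2r, a p53-induced death receptor, from -0.61 to 0.27. Ccng1, a p53 target called lower with zinc only (-1.0, and -0.08 NT), was lower in both after the correction (-0.53 and -0.43). The copper exporter Atp7a was called lower with zinc only (-0.32) and in neither contrast after the correction, and the importer Slc31a1, at -0.26 with zinc, had -0.04 after it (adjusted p = 0.71). Creld2, a gene of the unfolded protein response, was called higher with zinc only (0.83) and in both after the correction. Ifih1, the RNA sensor MDA5, was called lower with zinc only (-1.48), and in both after the correction.

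**Figure D5:**
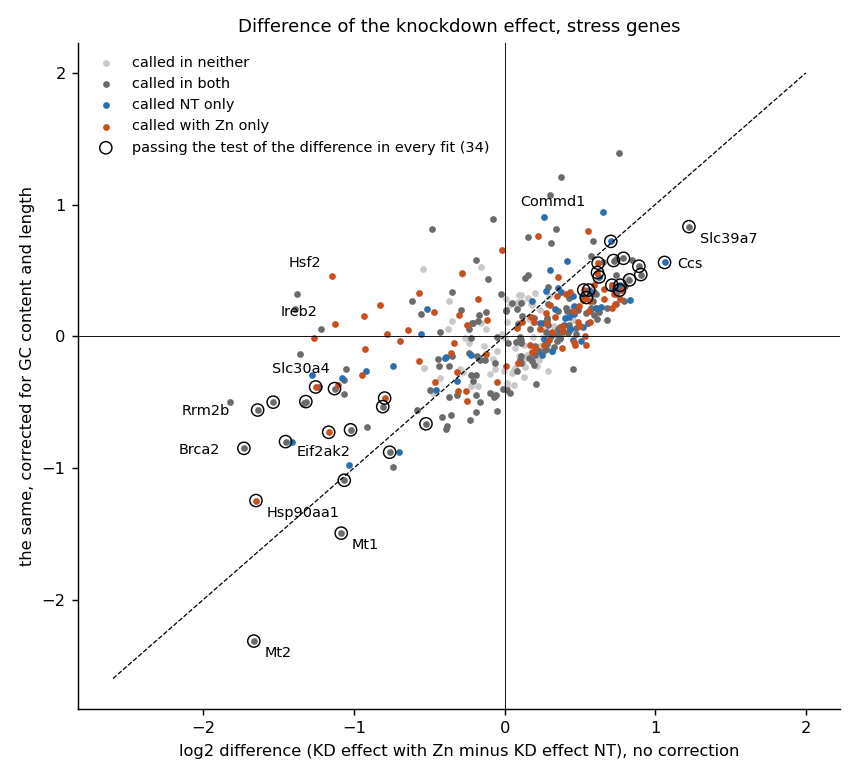
Difference of the log2 fold changes (Baf180 KD effect with Zn minus effect NT) of 388 stress genes before (horizontal) and after (vertical) the correction for GC content and length, with open circles on the 34 genes that passed before and after the correction and in every uncorrected fit that left out a library. Points between the dashed line of equality and the horizontal axis shrank, Hsf2 crossed 0, and Mt1 and Mt2 lie below the line, farther from 0 than before.

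Of the 171 stress genes called in both contrasts, 27 (15.8%) changed in opposite directions and the others in the same direction, beside 23.7% of all genes called in both (6.5% of all genes tested). After the correction 4 of 184 (2.17%) were opposite, beside 7.71% of all genes called in both (2.47% of all genes tested). Before it, 65 of the 171 passed the test of the difference (10.3% of all genes were called in both and passed). Nqo1, the NRF2-driven quinone reductase, stood at 73.6 and 67.5 CPM in Baf180 KD Zn, 15 and 13.8 in scr Zn, 61.1 and 56.5 in Baf180 KD NT and 12.4 and 13 in scr NT. KD lay above scr in each treatment with no overlap, at log2 fold changes of 2.29 (SE 0.081, adjusted p = 2.5e-07) with zinc and 2.20 (SE 0.12, adjusted p = 1.3e-07) NT, and a difference of 0.09 (SE 0.13, adjusted p = 0.66). Hmox1, the heme oxygenase, showed 0.84 and 0.63, the epoxide hydrolase Ephx1 1.49 and 1.13, and the heme transporter Slc48a1 1.59 and 1.31. Among glutathione S-transferases, Gstm2 measured 19.8 and 15.9 CPM in Baf180 KD Zn, 2.58 and 2.8 in scr Zn, 18.9 and 15.7 in Baf180 KD NT and 2.38 and 2.27 in scr NT. Gstm2 (2.69 and 2.88) and Mgst1 (2.68 and 2.91) were higher, whereas Gsta4, which detoxifies 4-hydroxynonenal, was lower (-0.71 and -0.91). The extracellular superoxide dismutase Sod3 was higher (2.35 and 1.76), in contrast with Sod1.

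The immediate early transcription factors Egr1, Egr2 and Egr3 were higher in both. Egr1 stood at 212 and 205 CPM in Baf180 KD Zn, 39.8 and 45 in scr Zn, 167 and 158 in Baf180 KD NT and 25.5 and 25.5 in scr NT. Its log2 fold changes were 2.28 with zinc and 2.66 NT, those of Egr2 3.92 and 4.66, and those of Egr3 2.78 and 3.19. The chemokine Cxcl12 had 3.16 and 3.37, the adhesion receptor Vcam1 2.83 and 2.91, and the chemokine Ccl2 (chosen after its values were seen) 1.28 and 2.18. Of 25 interferon-stimulated genes tested, 8 were lower with zinc and 10 NT, among them Isg15 at -1.97 and -2.71 and Ifit1 at -1.62 and -1.20. Beside them, 24.9% of all genes tested were lower with zinc and 19.3% NT. After the GC and length correction 9 of the 25 were lower with zinc and 11 NT, beside 27.8% and 25.5% of all genes. The members named were picked for the largest changes with zinc. Rsad2 (viperin) was lower too, at -3.01 and -3.31, with at most 2.77 CPM in any of the 8 libraries.

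Lower in both contrasts were also the small heat shock protein Hspb1 (-1.47 with zinc, -1.68 NT), the eIF2α kinase of the endoplasmic reticulum Eif2ak3 (-1.12 and -1.23), the stress hormone gene Stc2 (-1.26 and -1.52), the tetraspanin Cd82 (-1.06 and -1.41), the copper chaperone of cytochrome c oxidase Cox17 (-1.23 and -0.86) and the adenylate kinase Ak4 (-1.43 and -2.09). Trib3, a pseudokinase induced by ATF4 (chosen after its values were seen), stood at 39.8 and 35.9 CPM in Baf180 KD Zn, 70 and 58.7 in scr Zn, 29.3 and 27.6 in Baf180 KD NT and 74.1 and 94.1 in scr NT. KD was below scr in both treatments, at -0.78 with zinc and -1.58 NT. Ddit3 (CHOP), also chosen after its values were seen, had -0.34 and -0.92. Calr, the calcium-binding chaperone of the endoplasmic reticulum, was higher at 0.81 and 0.40, and the HIF prolyl hydroxylase Egln3 was higher at 1.43 and 1.15.

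Markers of cell identity and state moved with the knockdown, and their part in the stress results was not tested. The 4 markers named here with their own values were chosen after those values were seen. All 9 fibroblast markers tested were higher in Baf180 KD with zinc, with a summed level of 3406 and 3631 CPM against 1254 and 1242 CPM in scr. Of the differentiated muscle markers, 17 of 27 were higher and 5 lower with zinc, Myog, the myogenic factor of early differentiation, at 32.7 and 26.4 CPM against 3.94 and 3.8 CPM. The list without Ttn summed to 341 and 329 CPM in Baf180 KD Zn and 193 and 203 CPM in scr Zn, and Ttn, the giant sarcomere protein titin, was lower (473 and 756 CPM against 3646 and 4746 CPM). Myoblast markers were split, 5 higher and 6 lower of 13, with Des, the muscle intermediate filament desmin, at 1199 and 1070 CPM against 1794 and 1664 CPM and Myf5, a myogenic factor, at 42 and 44.5 CPM against 199 and 182 CPM. Of all genes tested 24.9% were higher and 24.9% lower with zinc. After the GC and length correction 9 fibroblast markers were higher with zinc. Differentiated muscle markers were then 17 higher and 6 lower, and myoblast markers 4 higher and 7 lower. Of 3 adipocyte markers tested, 2 were higher in both contrasts, and the list summed to 70.8 and 70.8 CPM in Baf180 KD Zn, 31.4 and 30.9 CPM in scr Zn, 80 and 68.2 CPM in Baf180 KD NT and 27.2 and 25.8 CPM in scr NT. Markers of immune cells summed to 5.06 to 7.13 CPM in the 8 libraries and those of endothelial cells to 9.56 to 12.9 CPM. In bulk RNA a change in the share of cells in a state and a change of RNA per cell cannot be told apart.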

How the data were processed

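RNA-seq counts of C2C12 libraries from 4 groups (Baf180 KD Zn, scr Zn, Baf180 KD NT, scr NT; 2 each) were taken from the deposited table of counts per gene for all 24 libraries. The deposited counts are whole numbers that the authors obtained by removing ribosomal RNA with RNase H, preparing stranded paired-end libraries, aligning to mm10 with STAR with unique mappers kept, and counting reverse-stranded fragments with featureCounts; they used DESeq2 for testing, and versions are not given in the sources used here. Members, lists and named genes were chosen with earlier results of these data known. Genes were tested with edgeR 4.0.16 in R 4.3.3 (TMM, filterByExpr defaults, quasi-likelihood test, Benjamini-Hochberg adjusted p under 0.05), each contrast on its 4 libraries and their difference on all 8. Levels are CPM (counts scaled to a common total) with TMM factors over the 24 libraries; they are not divided by gene length, so levels of different genes were not compared. The correction used an offset per library, a spline with 5 degrees of freedom in GC content and length (GENCODE M21, matched for 53699 of 55291 symbols). Named genes were those the study targets or discusses, in each list the 3 largest called changes with zinc (mean CPM of at least 1, groups apart) and the 3 smallest p-values of the difference in each class, and the largest changes over all genes; others are marked as chosen after their values were seen. On simulated counts with 200 genes changed by 1 on the log2 scale, the zinc contrast recovered 66.5%, NT 66.5% and the difference 56% of them, and with a change of 0.5 it was 14%, 25.5% and 0.5%. Unchanged genes made up 9.52%, 5% and 5.88% of the calls at a change of 1, and 12.5%, 15% and 66.7% at 0.5. The simulated counts had no GC trend and few changed genes, unlike these data, so these rates need not hold here. Total counts ran from 13979295 to 75179394 per library, and with 2 replicates per group the number of replicates limits precision.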

Additional observations from a re-analysis of the deposited data

Results flagged for a closer look

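The effect of the knockdown differed between Zn and NT, by the test of the difference itself, for 34 stress genes that passed before the correction for GC content and length, after it, and without each of the 8 libraries in turn. The fits without a library used the uncorrected test, so passing the corrected test in each of them was not required. Values here are the log2 fold change with Zn minus that NT, before the correction. The calls that group the genes are also those before it. After it, of the genes called in opposite directions, only Bad, Brca2 and Kdm3a were called in both contrasts. Fkbp4 and Prdx5 were then no longer opposite. Slc30a4, Taldo1 and Phgdh, grouped here by a call in a single contrast, were then lower in both. Among genes called with Zn only they were Eif2ak2 (-1.17), Hsp90aa1 (-1.65), Hyou1 (0.53), Parp1 (0.54), Pdia6 (0.62), Pgd (0.62), Rad50 (-0.80) and Slc30a4 (-1.25). Among genes called NT only they were Ccs (1.06), Dnajb11 (0.56), Mthfd2 (0.63), Phgdh (0.76), Sod1 (0.71) and Taldo1 (0.77). Among genes called in both contrasts in opposite directions they were Atm (-1.32), Atr (-1.54), Bad (0.90), Brca2 (-1.73), Dnajb4 (-1.13), Fkbp4 (0.89), Kdm3a (-0.81), Nbn (-1.02), Pck2 (0.72), Prdx5 (0.83), Rrm2b (-1.64), Slc39a7 (1.22), Sqstm1 (0.71) and Xrcc4 (-1.45). Among genes called in both in the same direction they were Ccn2 (-0.52), Mt1 (-1.08), Mt2 (-1.66), Nr4a2 (-1.06), Pgk1 (0.79) and Zfp36l1 (-0.76). Across all genes the difference followed GC content (Spearman 0.67 before the correction), and the correction moved the value of most of these genes toward 0 while leaving its sign.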

How the results depend on the processing

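With 2 replicates a group, calls depended on single libraries. Leaving out each library in turn (the group left with 1 library was assumed to vary like the others) gave these ranges: genes called with Zn 5258 to 8422 (7547 with all libraries), NT 3025 to 7377 (6087), by the difference 2154 to 6013 (4577), with Zn only 1964 to 5092 (3387) and NT only 664 to 2826 (1994); stress genes called with Zn 198 to 280 (258), NT 143 to 261 (226), with Zn only 55 to 133 (85), NT only 19 to 88 (54), by the difference 70 to 203 (142), Zn only and passing it 22 to 51 (46), NT only and passing it 10 to 47 (29), and passing before and after the correction 12 to 66 (51), 3 to 9 of them Zn only (11) and 3 to 13 NT only (10). The lowest counts came without scr Zn replicate 2 or Baf180 KD NT replicate 2 for most of these, and the highest without scr NT replicate 1 for the difference. The GC and length correction lowered the genes passing the difference to 2122, the stress genes to 76, and those called with Zn only to 18. It turned the difference of Slc7a11 to 0.15, Hsf2 to 0.45, Eda2r to 0.27, Tfrc to 0.24 and Ireb2 to 0.10, and the log2 fold change with Zn of Fkbp4 to -0.079 and of Prdx5 to -0.12, and of the 217 called values of the genes named here 187 kept their side of the threshold, 23 lost it and those 7 turned. Demanding a 1.5-fold change left 4018 genes with Zn, 3846 NT, 3005 for the difference and 1645 with Zn only, and of the stress genes 126 with Zn, 30 with Zn only, 83 for the difference and 17 Zn only and passing it. With all 24 libraries in the fit, NT only held 3161 genes and 98 stress genes, 59 of which passed the difference and 16 also after the correction. Replicate numbers were not taken to pair the libraries, since the correlation of same-numbered deviations was 0.23 between the Zn groups and 0.34 and 0.31 between each of them and Baf180 KD NT, but -0.21, -0.16 and -0.21 in the 3 pairs with scr NT. A replicate block gave 1234 genes NT only and 34 stress genes, 15 passing the difference and 4 also after the correction, with 8606 genes called with Zn, and a block with crossed numbers, chosen after seeing the data, gave 8018 calls NT. Restricting to protein-coding genes, also chosen after seeing the data, raised the Zn-only stress genes passing before and after the correction to 18. DESeq2, RLE size factors, looser count filters and counts thinned to the smallest total left each of these counts, where they gave one, within 1.5 times its value, and no named value turned under them.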

Other observations

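Outside the stress lists, 5 of the genes with the largest changes with zinc are given here, each with the same direction NT. Col6a2, a chain of collagen VI, stood at 103 and 106 CPM in Baf180 KD Zn, 0.379 and 0.289 in scr Zn, 112 and 106 in Baf180 KD NT and 0.751 and 0.273 in scr NT. Lama4, the laminin alpha 4 chain, measured 23.2 and 24.2 CPM in Baf180 KD Zn, 0.0757 and 0.0788 in scr Zn, 26.3 and 24 in Baf180 KD NT and 0.125 and 0.182 in scr NT. Both were close to absent in the scr libraries and present in all 4 KD libraries, and the log2 fold change of Col6a2 with zinc was 8.36. With so few counts of Lama4 in scr, its fold change depends on the prior count of the fit and is not given. Of 40 extracellular matrix genes tested, 33 were higher and 6 lower with zinc, and 27 higher and 4 lower NT. Of all genes tested 24.9% were higher and 24.9% lower with zinc, and 21.7% and 19.3% NT. After the GC and length correction 28 matrix genes were higher and 6 lower with zinc, and 28 and 8 NT. In the other direction, Xirp2, an actin-binding protein of striated muscle, stood at 0.577 and 0.409 CPM in Baf180 KD Zn, 122 and 130.2 in scr Zn, 0.134 and 0.206 in Baf180 KD NT and 60.4 and 40.4 in scr NT. Cmah, which makes the sialic acid Neu5Gc, measured 1.73 and 1.32 CPM in Baf180 KD Zn, 109 and 120.2 in scr Zn, 1.17 and 1.48 in Baf180 KD NT and 83.3 and 66.9 in scr NT. The matrix metalloproteinase Mmp12 was at 0.0721 and 0.227 CPM in Baf180 KD Zn against 49.3 and 44.7 in scr Zn. That the KD and scr libraries did not overlap with zinc was part of the rule that picked these genes. NT the libraries of the 2 lines did not overlap for them either. Their differences between the contrasts had adjusted p-values of 0.37 (Col6a2), 0.38 (Lama4), 0.92 (Xirp2), 0.29 (Cmah) and 0.24 (Mmp12).

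Of 36 genes of G2 and mitosis, 19 were lower and 2 higher with zinc, and NT 8 were lower and 11 higher. After the GC and length correction 20 were lower and 4 higher with zinc, and 11 lower and 6 higher NT, so the NT balance turned with the correction. For the difference 17 were lower and 3 higher, and after the correction 11 were lower and 3 higher. Of 33 DNA replication genes, 12 were higher and 8 lower with zinc, and 4 higher and 8 lower NT. After the correction 7 were higher and 8 lower with zinc, and 2 higher and 15 lower NT. The share of all genes called was 24.9% in each direction with zinc, and 21.7% higher and 19.3% lower NT. After the correction it was 22.1% higher and 27.8% lower with zinc, and 18.1% and 25.5% NT. For the difference it was 13.7% higher and 15.8% lower, and 13.6% in both directions together after the correction.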
